A study of Rattus norvegicus with 36 samples.

Results

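Cells make cholesterol from acetyl-CoA through mevalonate and squalene, and fatty acids from the same acetyl-CoA through malonyl-CoA. Both routes are switched on by the SREBP transcription factors, which SCAP carries out of the endoplasmic reticulum when membrane sterol is low and which the INSIG proteins hold back when sterol is plentiful. Much of the textbook knowledge of this feedback comes from cultured fibroblasts, which raise the pathway together when serum lipids are short. The genes described here are 33 listed genes of sterol and fatty acid synthesis, of which 32 were found among 14217 genes with a probe set of a single symbol; the other was not analysed here. They comprised 6 genes of the mevalonate steps, 11 of the steps from squalene to cholesterol, 9 of fatty acid synthesis, and 6 sensors, SREBP factors and a sterol carrier.

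Transcripts were measured on Affymetrix rat arrays in vocal fold (VF) mucosa and in fibroblasts grown from it, all from male Fischer 344 rats that were 120 days old at the start. In the post-injury (PI) groups the mucosa of both folds had been stripped surgically, and the tissue of 4 rats was pooled for each array. Mucosa was taken 3, 14 or 60 days later, at 123, 134 or 180 days of age, with 5 PI arrays at each time and 3, 3 and 2 arrays of age-matched uninjured controls. The methods describe 4 PI and 3 control arrays at 60 days, and the array labels, which give 5 and 2, were followed. The 13 fibroblast arrays held explant cultures, each from the folds of 1 rat, grown in 10% serum to 80% confluence in passage 1. They were 3 cultures of scar fibroblasts given siRNA against gp46 (the collagen chaperone Serpinh1), 3 given scramble siRNA, 4 of untransfected scar fibroblasts from folds 60 days PI, and 3 of naive fibroblasts from uninjured rats of the same age. The siRNA was delivered at 50 nM in liposomes for 1 h, with 24 h of further culture. Fibroblast identity rests on outgrowth from explants, without a sort: the 7 fibroblast markers averaged 12.93 to 13.10 log2 in naive cultures against 11.73 to 11.78 log2 in 60-day control mucosa, and the 6 epithelial markers 5.72 to 5.79 log2 against 12.75 to 12.78 log2.

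The values are the authors' log2 RMA signals, between 2.72 and 14.74. RMA brings all arrays to one distribution, so a level is a share of what its array holds and no absolute amount. Fold changes are differences of these log2 values. A gene was called at a limma adjusted p under 0.05 over all 14217 genes, and the number of arrays limits the precision. The deviations of PI replicate 5 at 3 days, control replicate 3 at 14 days and PI replicate 4 at 60 days from their group means resembled each other across genes (Pearson's r of 0.61, 0.60 and 0.45; genes are not independent replicates), and the counts of called genes are also given without them.

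The stretches upstream of the start sites of 5 genes are shown first, because 4 of them were among the sterol synthesis genes with large differences between scar and naive fibroblasts and the other, Scd, had the largest difference in most of the comparisons that follow. They are the 140 bases before the start site, 5′ to 3′ on the gene's own strand, from RefSeq on the build GRCr8. The start sites are those of the RefSeq promoter table, which lie 370, 90 and 31 bases inside the outermost annotated end of Scd, Ebp and Tm7sf2, so the whole Scd stretch and part of those of Ebp and Tm7sf2 lie within the annotated gene. For Lss and Mvd they lie at that end. Capitals mark ATTGG, which is the CCAAT box read on the other strand.
Tm7sf2, chr1:212789542-212789681, minus strand: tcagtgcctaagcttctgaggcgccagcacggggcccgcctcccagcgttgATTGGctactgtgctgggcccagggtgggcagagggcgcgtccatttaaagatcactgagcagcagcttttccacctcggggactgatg
Lss, chr20:12118231-12118370, minus strand: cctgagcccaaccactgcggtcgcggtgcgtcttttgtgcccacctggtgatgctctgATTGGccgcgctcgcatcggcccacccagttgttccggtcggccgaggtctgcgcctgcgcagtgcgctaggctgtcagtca
Mvd, chr19:67414975-67415114, minus strand: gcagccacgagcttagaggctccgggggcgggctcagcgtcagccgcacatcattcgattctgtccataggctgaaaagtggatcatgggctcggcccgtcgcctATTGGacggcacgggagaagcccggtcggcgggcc
Ebp, chrX:16971322-16971461, plus strand: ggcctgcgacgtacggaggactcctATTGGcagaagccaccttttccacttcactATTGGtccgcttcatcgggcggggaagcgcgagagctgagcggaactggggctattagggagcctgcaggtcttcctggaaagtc
Scd, chr1:253231732-253231871, minus strand: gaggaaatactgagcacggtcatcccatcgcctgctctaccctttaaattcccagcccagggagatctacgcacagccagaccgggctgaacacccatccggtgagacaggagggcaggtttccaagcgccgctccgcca

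Promoter windows from 250 bases before to 50 bases after the start were at hand for 25 of the 32 genes. The CCAAT box (CCAAT, both strands), the site of the factor NF-Y that works beside SREBP at many sterol genes, lay in 18 of the 25 (72.0%), against 37.5% of all 33469 windows and 36.8% of the 13243 windows of genes on the array. It lay in 11 of 14 sterol synthesis genes, 3 of 6 fatty acid genes and 4 of 5 sensors and factors. The core of the sterol regulatory element was searched as CACCCCAC, CACGCCAC and CACTCCAC. One of these forms lay in 3 of the 25 windows, those of Acat2, Ebp and Insig1, against 4.63% of all windows. The E-box CACGTG lay in 3 of the 25, those of Insig1, Sc5d and Scap, against 6.42% of all windows and 8.62% of those of genes on the array. These are matches of letters only, and no binding was measured.

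Scar fibroblasts had lower transcript levels of the sterol and fatty acid synthesis genes than naive fibroblasts. Of the 32 genes, 22 were lower and 0 were higher (limma), where 5.47% of all 14217 genes were called, 2.84% lower and 2.63% higher. The genes were listed with earlier results of these data known, so such shares only describe the list, here and in the comparisons that follow. All 11 genes of the steps from squalene to cholesterol were lower, with 4 of 6 genes of the mevalonate steps, 6 of 9 genes of fatty acid synthesis, and Insig1 alone among the 6 sensors and factors. The median log2 fold change was -0.60 over the 32 genes and 0.02 over all genes. Every scar culture lay below every naive culture for 27 of the 32, while 18.5% of all genes had groups that did not overlap in either direction.

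**Figure D1:**
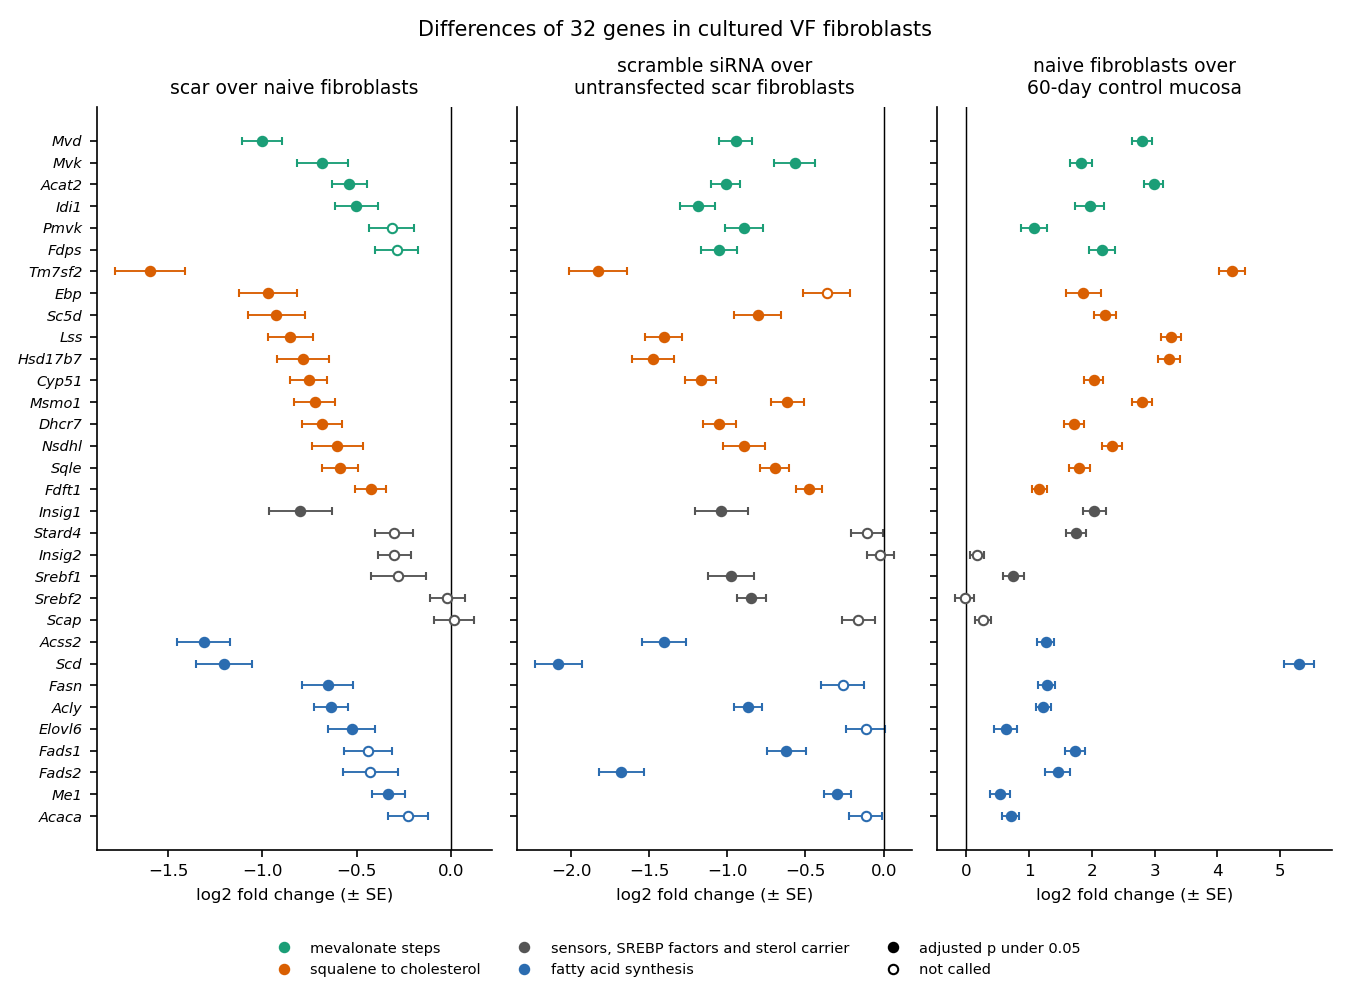
Log2 fold changes (x axis, ± SE) of the 32 genes, grouped and coloured by role, for scar over naive fibroblasts, scramble siRNA over untransfected scar fibroblasts, and naive fibroblasts over 60-day control mucosa. Filled points passed the test: 22 genes lay below 0 in the first panel, 25 below 0 in the second and 29 above 0 in the third, and the second panel shares its scar arrays with the first.

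Tm7sf2, a sterol reductase that works after the removal of the first methyl group of lanosterol, had 10.97, 10.46, 10.55 and 11.43 log2 in the scar cultures, against 12.42, 12.45 and 12.46 log2 in the naive cultures. The groups did not overlap, and the scar level was 3.02-fold lower (log2 fold change -1.59, SE 0.19, limma adjusted p = 0.00206). Mvd, which makes isopentenyl diphosphate at the end of the mevalonate steps, had 10.45, 10.14, 10.26 and 10.52 log2 in scar against 11.46, 11.25 and 11.32 log2 in naive cultures. It was 2.00-fold lower without overlap (log2 fold change -1.002, SE 0.11, adjusted p = 0.00144). Ebp, the sterol isomerase, was at 10.23, 9.75, 10.07 and 10.63 log2 in scar and 11.18, 11.15 and 11.09 log2 in naive cultures. Its scar values spread widely (SD 0.37, n = 4, against 0.04, n = 3, in naive cultures) yet all lay below the naive ones (log2 fold change -0.97, adjusted p = 0.00697). Sc5d, the desaturase of a late sterol intermediate, was at 9.90, 10.03, 10.15 and 10.49 log2 in scar and 11.02, 11.08 and 11.11 log2 in naive cultures (log2 fold change -0.93, SE 0.15, adjusted p = 0.00782).

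The other 8 genes from squalene onwards fell by 0.43 log2 (Fdft1, squalene synthase, adjusted p = 0.0153) to 0.85 log2 (Lss, which closes squalene epoxide to lanosterol, adjusted p = 0.00365). Between them lay Sqle, the squalene epoxidase that limits this branch (-0.59, adjusted p = 0.00782), Cyp51, the lanosterol demethylase (-0.76, adjusted p = 0.00325), and Dhcr7, a reductase of the last step to cholesterol (-0.69, adjusted p = 0.00619). Among the mevalonate steps, Mvk (-0.68), Acat2 (-0.54) and Idi1 (-0.50) were lower, and Pmvk and Fdps had log2 fold changes of -0.32 and -0.29 that did not pass (adjusted p = 0.161 and 0.177). The array design marks the probe set of Cyp51 as one whose probes may match further transcripts, and that of Fasn as one for several transcripts of the gene. Of the 20 further probe sets that 17 of the 32 genes have, all 20 had negative log2 fold changes and 11 were called lower over all probe sets.

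In fatty acid synthesis the largest differences were at the entry and at the desaturation step. Acss2, which makes acetyl-CoA from acetate, had 10.29, 9.79, 9.83 and 10.42 log2 in scar cultures, against 11.44, 11.41 and 11.33 log2 in naive cultures. It was 2.48-fold lower without overlap (log2 fold change -1.31, SE 0.14, limma adjusted p = 0.00144). Scd, stearoyl-CoA desaturase, which puts the first double bond into saturated fatty acids, had 10.96, 10.45, 10.49 and 11.004 log2 in scar and 11.83, 11.82 and 12.13 log2 in naive cultures. It was 2.30-fold lower without overlap (log2 fold change -1.20, SE 0.15, adjusted p = 0.00252). Its close relative Scd2 has 4 probe sets of its own, and only the one of median mean intensity was examined. By that probe set Scd2 averaged 10.02 ± 0.58 log2 in scar (SD, n = 4) and 10.87 ± 0.02 log2 in naive cultures (SD, n = 3), with limma adjusted p = 0.157. Whether transcripts of one desaturase reach the probes of the other was not tested. Fasn, the fatty acid synthase (-0.65), Acly, which makes acetyl-CoA from citrate (-0.64), Elovl6, which lengthens palmitate (-0.53), and Me1, a source of NADPH (-0.33), were also lower. Fads1 and Fads2, the desaturases of polyunsaturated fatty acids, had -0.44 and -0.43 (adjusted p = 0.0674 and 0.116), and Acaca, which makes malonyl-CoA, had -0.23 (adjusted p = 0.242).

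Among the sensors and factors, Insig1 fell by 0.80 log2 (SE 0.17, limma adjusted p = 0.0211), with 12.26, 11.94, 12.11 and 12.72 log2 in scar and 13.20, 13.08 and 12.87 log2 in naive cultures, again without overlap. Srebf2, which encodes the SREBP of sterol synthesis, had 10.72, 10.87, 10.69 and 10.64 log2 in scar and 10.75, 10.88 and 10.62 log2 in naive cultures. The ranges overlapped, the log2 fold change was -0.02, and its 95% interval ran from -0.23 to 0.18. Scap had a log2 fold change of 0.02 (95% interval -0.21 to 0.25). Srebf1, the SREBP of fatty acid synthesis, had -0.28 (adjusted p = 0.303), and Insig2 and the sterol carrier Stard4 had -0.30 and -0.31 (adjusted p = 0.0679 and 0.106).

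**Figure D2:**
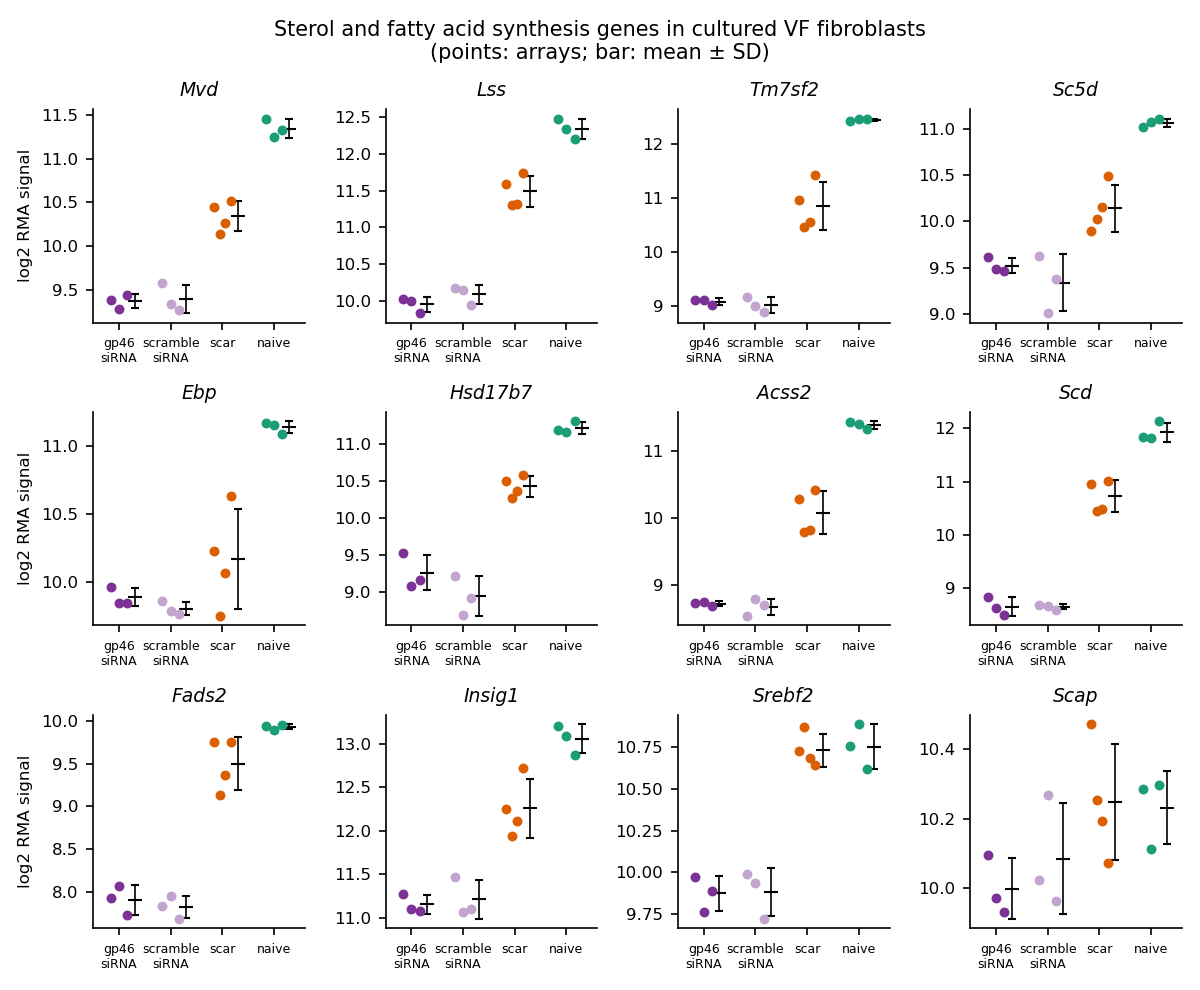
Log2 RMA signals (y axis) of 12 genes in the 13 fibroblast arrays, with the mean ± SD beside the points of each group. For Tm7sf2, Mvd, Lss, Acss2 and Scd the scar cultures lie below the naive ones and the siRNA cultures below both, whereas Srebf2 overlaps between scar and naive cultures (10.64 to 10.87 log2 and 10.62 to 10.88 log2).

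Genes of the neighbouring pathways were counted too. Of 18 other lipid synthesis genes, 5 were lower and 1 was higher in scar fibroblasts (median log2 fold change -0.12). The lower ones included Lpin1, a phosphatidate phosphatase (-1.13, limma adjusted p = 0.0115), and Tmem97, a sterol-responsive membrane protein (-0.53, adjusted p = 0.00995). Of 10 genes of sterol efflux, storage and the LXR sensors, 1 was higher and 1 lower: Abca1, which exports cholesterol, rose by 0.63 log2 (adjusted p = 0.0422), and Npc2, which moves cholesterol out of lysosomes, fell by 0.47 log2 (adjusted p = 0.00847).

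The cultures also differed in markers of cell division. All 8 such markers together averaged 6.96 to 8.54 log2 in the scar cultures and 6.01 to 6.30 log2 in the naive cultures, and 7 of the 8 were called higher in scar. Within the scar cultures, replicates 2 and 3 had the highest division means (8.38 and 8.54 log2) and the lowest means over the 17 sterol synthesis genes (10.91 and 10.97 log2), while replicate 4 had the lowest division mean (6.96 log2) and the highest sterol mean (11.32 log2). The sterol means of the naive cultures were 11.81, 11.76 and 11.80 log2. The part of cell division in the difference was not tested. The 8 mature muscle markers averaged 9.73, 7.37, 8.14 and 6.99 log2 in the scar cultures and 7.25, 6.71 and 8.30 log2 in the naive cultures, so the groups overlapped and none of the 8 was called. The count of 22 was 8 without scar replicates 2 and 3 (0.992% of all genes called), 13 without scar replicate 1 and naive replicate 3, which had the highest muscle markers (2.26%), 14 without naive replicate 1 (1.94%), and 13 with the 7 arrays fitted alone (0.921%). The median log2 fold change of the 32 genes was -0.55, -0.60, -0.59 and -0.60 in these 4 fits. Tm7sf2, Acss2, Scd, Mvd and Lss were called in 17 of 18 alternatives, the exception being the replicate block, and Insig1, Elovl6 and Me1 in 11, 8 and 9 of them. Among the sterol synthesis genes, Idi1, Nsdhl and Fdft1 lost their calls when any 1 of the naive cultures was left out. Their limma adjusted p was 0.0943, 0.0902 and 0.0521 without naive replicate 1, 0.0891, 0.0965 and 0.0525 without replicate 2, and 0.081, 0.0728 and 0.0612 without replicate 3.

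**Figure D3:**
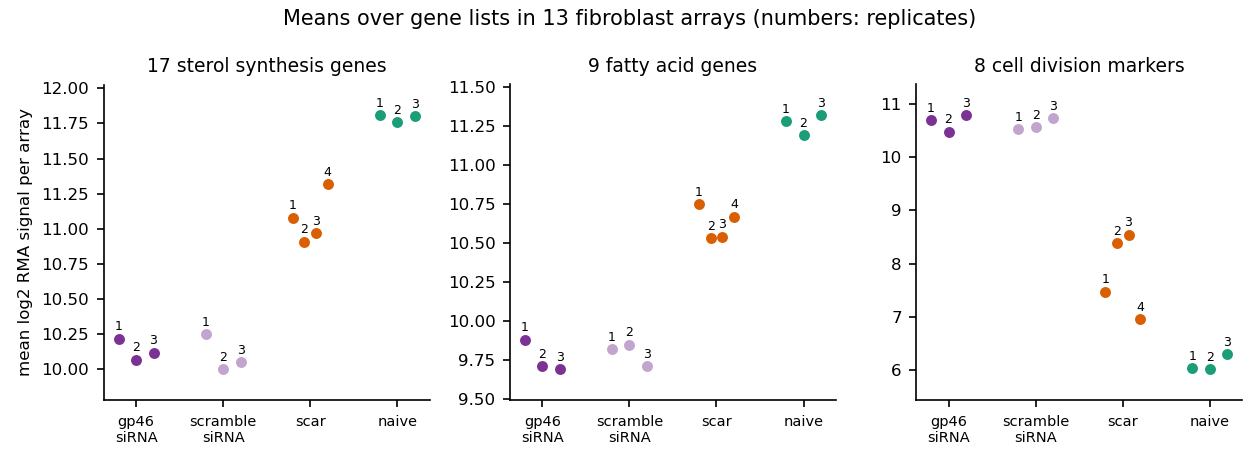
Mean log2 RMA signal per array (y axis) over the 17 sterol synthesis genes, the 9 fatty acid genes and the 8 cell division markers in the 4 fibroblast groups, with replicate numbers. The sterol means lie at 10.07 to 10.22 log2 with gp46 siRNA, 10.00 to 10.25 log2 with scramble siRNA, 10.91 to 11.32 log2 in scar and 11.76 to 11.81 log2 in naive cultures, while the division means of scar cultures (6.96 to 8.54 log2) lie above those of naive cultures (6.01 to 6.30 log2).

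The siRNA comparison asks whether targeting gp46 changed these genes in scar fibroblasts. The target itself, Serpinh1, was at 12.43, 12.64 and 12.67 log2 with gp46 siRNA and 12.98, 12.96 and 12.93 log2 with scramble siRNA. The groups did not overlap, yet the log2 fold change of -0.38 (SE 0.10, limma unadjusted p = 0.00255) did not pass over all genes. None of the 32 genes was called (0 higher and 0 lower, and 0 at an unadjusted p under 0.05), and 0% of all 14217 genes were called (0, and 299 at an unadjusted p under 0.05). The 32 log2 fold changes lay between -0.16 and 0.31, with a median of -0.01. The largest was that of Hsd17b7, a keto-sterol reductase, with 9.53, 9.09 and 9.17 log2 under gp46 siRNA and 9.22, 8.70 and 8.93 log2 under scramble siRNA. These ranges overlapped (95% interval of the difference from -0.005 to 0.63), and 0 of the 32 genes had groups apart, beside 6.35% of all genes. Insig2 was at 9.42, 9.68 and 9.54 log2 with gp46 siRNA and 9.42, 9.34 and 9.54 log2 with scramble siRNA, and Sc5d at 9.61, 9.49 and 9.46 log2 and 9.63, 9.01 and 9.38 log2. Over the 32 genes the 95% intervals of the difference stayed within -0.48 and 0.63 log2. These intervals are from the fit without pairing. Deviations of same-numbered cultures from their group means had Pearson's r of 0.43, 0.18 and 0.47, and the labels do not link these cultures. The 0.18 lies within the -0.13 to 0.31 of the mucosa groups, which were not taken as paired. With the number as a block 0 of the 32 and 0 of all genes were called (limma, with 1 and 570 at an unadjusted p under 0.05). The 1 was Hsd17b7, which was higher with gp46 siRNA by 0.31, 0.39 and 0.24 log2 in the 3 same-numbered pairs (blocked log2 fold change 0.31, 95% interval 0.12 to 0.51, adjusted p = 0.985). The 3 pairs differed in the same direction for 6 of the 32 genes (18.8%), beside 23.4% of all genes.

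Scar fibroblasts given scramble siRNA were lower in the same pathway than untransfected scar fibroblasts. Of the 32 genes, 25 were lower and 0 higher (limma), beside 30% of all genes called, 13.6% lower and 16.5% higher. The groups did not overlap for 24 of the 32, against 34.4% of all genes. The lower genes comprised all 6 of the mevalonate steps, 10 of 11 from squalene to cholesterol, 6 of 9 of fatty acid synthesis and 3 of 6 sensors and factors. The median log2 fold change was -0.88 over the 32 genes and -0.01 over all genes. The untransfected scar arrays also serve in the comparison with naive fibroblasts, so high values in them would raise one difference as they lower the other. The transfected cultures differ from the untransfected ones in liposomes, siRNA and 24 h more of culture in fresh medium, which cannot be told apart here.

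Scd had 8.68, 8.67 and 8.59 log2 with scramble siRNA, against 10.96, 10.45, 10.49 and 11.004 log2 in untransfected scar cultures. It was 4.23-fold lower without overlap (log2 fold change -2.08, SE 0.15, limma adjusted p = 4.29e-06). Tm7sf2 had 9.18, 8.99 and 8.89 log2 with scramble siRNA against 10.97, 10.46, 10.55 and 11.43 log2 without, and was 3.56-fold lower (adjusted p = 3.09e-05). Fads2, the first desaturase of polyunsaturated fatty acids, had 7.83, 7.95 and 7.69 log2 with scramble siRNA against 9.75, 9.13, 9.37 and 9.75 log2 without. It was 3.20-fold lower here without overlap (adjusted p = 1.27e-05), whereas its difference between scar and naive cultures had not passed.

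Lss was at 10.18, 10.14 and 9.94 log2 with scramble siRNA and 11.60, 11.31, 11.32 and 11.74 log2 without (log2 fold change -1.41, SE 0.12, limma adjusted p = 1.03e-05). Acss2 was at 8.54, 8.79 and 8.70 log2 with scramble siRNA and 10.29, 9.79, 9.83 and 10.42 log2 without (log2 fold change -1.41, adjusted p = 2.77e-05). Neither gene had overlapping groups. Hsd17b7 was at 9.22, 8.70 and 8.93 log2 with scramble siRNA and 10.49, 10.27, 10.36 and 10.58 log2 without, a log2 fold change of -1.48. A second probe set of Hsd17b7 had -0.16 (adjusted p = 0.485 over all probe sets), so its change depends on the probe set. Across the genes with several probe sets, 13 of the 20 further ones were negative, 12 were called lower and 1, of Scap, was called higher.

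Transcripts of the factors themselves were lower in this comparison. Srebf2 was at 9.99, 9.94 and 9.72 log2 with scramble siRNA and 10.72, 10.87, 10.69 and 10.64 log2 without, without overlap (log2 fold change -0.85, SE 0.09, limma adjusted p = 5.54e-05). A second probe set of Srebf2, whose mean of 5.19 log2 is near the low end of the arrays, had 0.09. Srebf1 fell by 0.98 log2 (adjusted p = 0.000489) and Insig1 by 1.04 log2 (adjusted p = 0.000773). Scap, Stard4 and Insig2 had log2 fold changes of -0.16, -0.11 and -0.02, and Ebp, Fasn, Elovl6 and Acaca had -0.37, -0.26, -0.12 and -0.11, none of which passed. Of 18 other lipid synthesis genes, 5 were lower and 2 higher. Tmem97 rose by 0.65 log2 (adjusted p = 0.000349), whereas Slc25a1, the citrate carrier of mitochondria, fell by 0.62 log2 (adjusted p = 6.08e-05). Of 10 genes of efflux, storage and the LXR sensors, 3 were lower and 1 was higher, Soat1, which esterifies cholesterol (0.82, adjusted p = 0.000355).

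Division markers moved with this comparison as well. Their mean was 10.53 to 10.73 log2 with scramble siRNA and 6.96 to 8.54 log2 in untransfected scar cultures, and 8 of 8 were higher. Muscle markers averaged 6.08 to 6.68 log2 with scramble siRNA and 6.99 to 9.73 log2 without, with 2 of 8 called lower, and 4 of 7 fibroblast markers were lower (12.49 to 12.69 log2 and 12.59 to 13.01 log2). Endothelial markers averaged 6.76 to 6.90 log2 with scramble siRNA and 5.95 to 6.28 log2 without, with 1 of 4 called higher, and 2 of 5 gland markers were lower. Of 8 adipocyte markers 1 was lower, and of 8 macrophage markers 1 was higher and 1 lower. The part of all these markers in the result was not tested. The count of 25 lay between 20 and 27 in all alternatives, those without the cultures of extreme muscle or division markers included. It was 20 with a replicate block (11% of all genes called) and 27 with the mean of probe sets (29.5%).

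Most of the 32 genes had higher relative levels in naive fibroblasts than in uninjured mucosa of the same age, at 180 days. Higher in naive fibroblasts were 29 of the 32 and lower 0 (limma), beside 62.2% of all genes called, 36.1% higher and 26.1% lower. The groups did not overlap for 31 of the 32, against 79.2% of all genes. Every gene of the mevalonate steps (6), of the steps from squalene to cholesterol (11) and of fatty acid synthesis (9) was higher. The median log2 fold change was 1.78 over the 32 genes and 0.12 over all genes. Mucosa holds epithelium, glands, muscle and leukocytes beside fibroblasts, and the median log2 fold changes of their marker lists were -7.08 (epithelium), -6.23 (muscle), -5.37 (gland), -4.82 (macrophage), -2.84 (endothelium) and -1.72 (neutrophil). Division markers were lower in naive fibroblasts too (7 of 8, median log2 fold change -1.82), and fibroblast markers were higher (5 of 7, median 1.18). Of 8 adipocyte markers 3 were lower and 1 was higher, and of 4 myelin markers 2 were lower. The part of cell division in the difference was not tested here either. Cell type and culture cannot be told apart in this comparison. In bulk samples such as these, fewer cells of a type and less RNA per cell cannot be told apart either.

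Scd had 11.83, 11.82 and 12.13 log2 in naive fibroblasts and 6.77 and 6.49 log2 in 60-day control mucosa, a 39.4-fold difference without overlap (log2 fold change 5.30, SE 0.24, limma adjusted p = 8.36e-18). Tm7sf2 had 12.42, 12.45 and 12.46 log2 in naive fibroblasts and 8.28 and 8.14 log2 in control mucosa, 18.9-fold apart (adjusted p = 2.23e-17). Lss had 12.48, 12.35 and 12.20 log2 in naive fibroblasts and 9.08 and 9.09 log2 in mucosa, 9.56-fold apart. Of the mevalonate genes, Acat2, the thiolase of the first step, had 12.23, 11.95 and 11.96 log2 in naive fibroblasts and 8.97 and 9.15 log2 in mucosa (log2 fold change 2.99), and Mvd had 11.46, 11.25 and 11.32 log2 and 8.54 and 8.54 log2 (2.81). Hsd17b7 had 11.18, 11.15 and 11.30 log2 in naive fibroblasts and 7.92 and 8.04 log2 in mucosa (log2 fold change 3.23). The groups of each of these genes were far apart, with adjusted p of 1.5e-15 or less. At the other end, Me1, Elovl6 and Acaca had log2 fold changes of 0.54, 0.63 and 0.71. Srebf2 was at 10.75, 10.88 and 10.62 log2 in naive fibroblasts and 10.79 and 10.77 log2 in mucosa (log2 fold change -0.02, 95% interval -0.34 to 0.29), and Insig2 and Scap, with 0.17 and 0.27, did not pass either. The count lay between 28 and 31 in the alternatives. It was 28 without control replicate 1 (53.6% of all genes called) and 31 with arrays centred on their median (66.6%).

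In injured mucosa at 3 days the response of the 32 genes was split. Scd was higher and Insig1, Fdft1, Hsd17b7 and Srebf2 were lower than in control mucosa, so that 1 rose and 4 fell (limma) beside 26.6% of all genes called, 14.6% higher and 12% lower. Groups lay apart for 9 of the 32, against 31.2% of all genes. In this fit the share of called genes among the 32 was thus no higher than among all genes. It was higher without the 3 arrays that deviated together (43.8% against 38.5%) and without PI replicate 5 (31.2% against 27%). The same held with array weights (68.8% against 58.6%) and with a replicate block (34.4% against 29.7%). With most other choices it stayed lower. The median log2 fold change was -0.08 over the 32 genes and 0.01 over all genes. Of the 17 sterol synthesis genes 2 were lower and 0 higher.

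**Figure D4:**
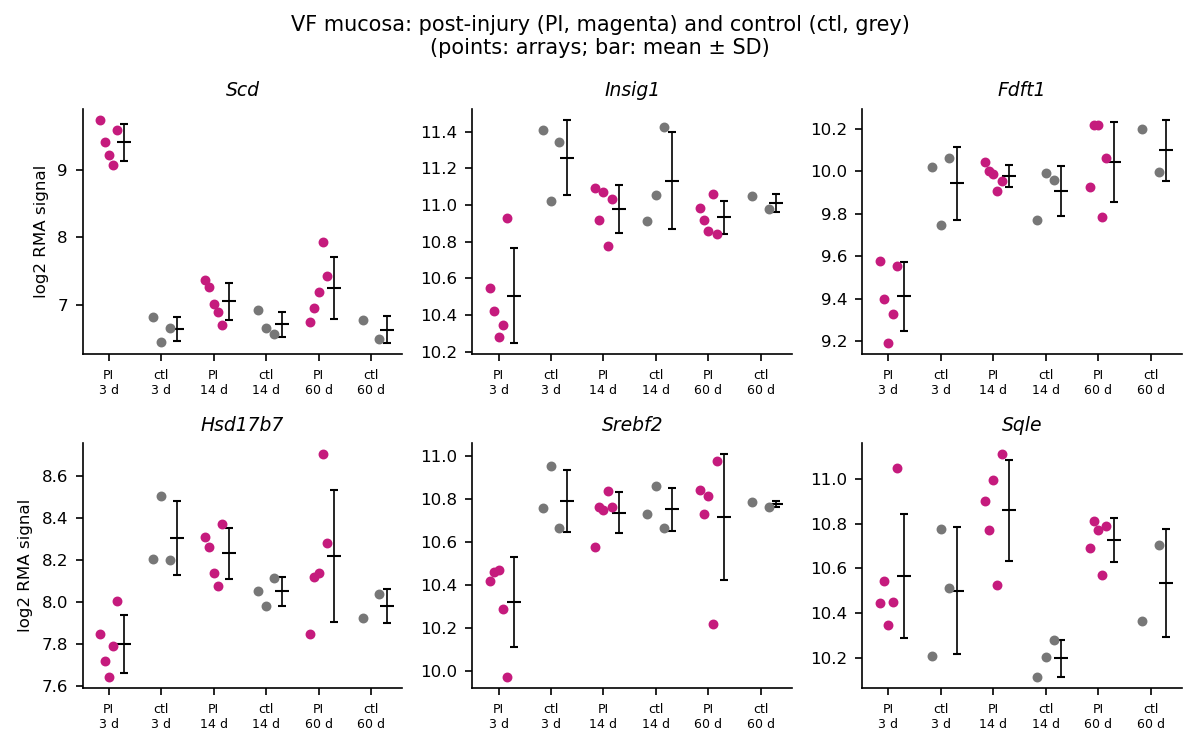
Log2 RMA signals (y axis) of 6 genes in the 23 mucosa arrays, PI in magenta and control in grey at 3, 14 and 60 days, with the mean ± SD beside the points of each group. The 5 PI arrays at 3 days lie at 9.07 to 9.74 log2 for Scd, above the 3 controls at 6.45 to 6.81 log2, and for Insig1, Fdft1, Hsd17b7 and Srebf2 they lie below the controls.

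Scd had 9.74, 9.42, 9.22, 9.07 and 9.60 log2 in PI mucosa at 3 days, against 6.81, 6.45 and 6.65 log2 in control mucosa. It was 6.83-fold higher without overlap (log2 fold change 2.77, SE 0.21, limma adjusted p = 4.37e-09) and was called in 19 of 19 alternatives. By the single probe set examined, Scd2 averaged 9.30 ± 0.38 log2 in PI mucosa (SD, n = 5) and 8.64 ± 0.31 log2 in control mucosa (SD, n = 3). Its log2 fold change of 0.66 did not pass (limma adjusted p = 0.276). No other fatty acid gene was called, and the remaining 8 lay between -0.32 (Fads2) and 0.23 (Fads1).

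Insig1 was at 10.55, 10.43, 10.28, 10.35 and 10.93 log2 in PI mucosa and 11.41, 11.03 and 11.34 log2 in control mucosa. All PI arrays were lower (log2 fold change -0.75, SE 0.13, limma adjusted p = 0.000235). Fdft1, which commits farnesyl diphosphate to sterols, was at 9.58, 9.40, 9.19, 9.33 and 9.55 log2 in PI mucosa and 10.02, 9.75 and 10.06 log2 in control mucosa, again without overlap (-0.53, SE 0.11, adjusted p = 0.000889). A second probe set of Fdft1 had -0.72 (adjusted p = 0.000481 over all probe sets). Hsd17b7 was at 7.85, 7.72, 7.64, 7.79 and 8.01 log2 in PI mucosa and 8.21, 8.51 and 8.20 log2 in control mucosa (-0.50, adjusted p = 0.00769), and Srebf2 at 10.42, 10.46, 10.47, 10.29 and 9.97 log2 and 10.76, 10.95 and 10.67 log2 (-0.47, adjusted p = 0.013). The calls of these last genes were lost without control replicate 2 (adjusted p = 0.0555 for Hsd17b7 and 0.0719 for Srebf2) and with the mean of probe sets (0.0887 and 0.0525). By a second probe set Hsd17b7 differed by 0.09 log2 (adjusted p = 0.684 over all probe sets). Of the 20 further probe sets, 10 had the sign of the one used and 5 were called lower.

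Lss, Tm7sf2 and Sc5d also had PI arrays that all lay below the controls at 3 days, and their log2 fold changes of -0.34, -0.38 and -0.26 did not pass (limma adjusted p = 0.0609, 0.059 and 0.184). Both further probe sets of Sc5d were called lower, at -0.60 and -0.30 (adjusted p = 1.09e-06 and 0.0485 over all probe sets). Of 18 other lipid synthesis genes 1 was higher and 4 were lower: Tmem97 rose by 1.28 log2 (adjusted p = 4.58e-05), and Lpin1, Acsl1, Acat1 and Pcyt2 fell, Lpin1 by 0.97 log2. Of 10 genes of efflux, storage and the LXR sensors, Abca1 and Abcg1, which export cholesterol, rose by 1.13 and 0.51 log2 (adjusted p = 1.26e-05 and 0.00471), and Cyp27a1, a sterol hydroxylase, fell by 0.77 log2 (adjusted p = 0.000824).

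Several cell types moved in the same arrays. Division markers averaged 9.78 to 9.99 log2 in PI mucosa and 7.80 to 8.45 log2 in control mucosa (7 of 8 higher), and neutrophil markers 6.36 to 8.26 log2 and 5.45 to 6.18 log2 (4 of 5 higher). Fibroblast markers averaged 13.03 to 13.28 log2 in PI and 12.17 to 12.28 log2 in control mucosa (5 of 7 higher). Muscle markers averaged 11.77 to 12.56 log2 in PI and 12.58 to 13.16 log2 in control mucosa (6 of 8 lower), and myelin markers 6.23 to 6.68 log2 and 6.66 to 7.20 log2 (3 of 4 lower). Adipocyte markers averaged 6.51 to 6.92 log2 in PI and 7.02 to 7.12 log2 in control mucosa (2 of 8 lower), with Adipoq at 5.63 and 5.41 log2 and Plin1 at 4.38 and 4.44 log2, near the low end of the arrays. Endothelial markers averaged 9.21 to 9.44 log2 in PI and 8.84 to 9.06 log2 in control mucosa (2 of 4 higher), epithelial markers 11.96 to 12.38 log2 and 12.20 to 12.66 log2 (2 of 6 higher, 1 lower), and 0 of 8 macrophage markers were called. Gland markers averaged 11.03 to 12.13 log2 in PI and 11.86 to 11.99 log2 in control mucosa (1 of 5 higher, 1 lower), with group means of Tff2 at 8.70 and 12.19 log2 and of Cftr at 7.46 and 5.80 log2. The part of these cells in the values of the 32 genes was not tested. The count of 5 was 10 without PI replicate 5 (27% of all genes called), 14 without the 3 arrays that deviated together (38.5%), 12 with the controls of all ages pooled (39%) and 22 with array weights (58.6%).

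At 14 days Sqle alone was called among the 32 genes (1 higher and 0 lower by limma, beside 3.03% of all genes called, 2.08% higher and 0.95% lower). It had 10.90, 10.77, 10.997, 10.52 and 11.11 log2 in PI mucosa, against 10.11, 10.20 and 10.28 log2 in control mucosa. The groups did not overlap and the level was 1.58-fold higher (log2 fold change 0.66, SE 0.15, adjusted p = 0.0162). The call was lost without PI replicate 5 (adjusted p = 0.0523) and without control replicate 1, 2 or 3 (0.092, 0.069 and 0.0553). Of the 17 sterol synthesis genes, 15 had positive log2 fold changes (median 0.19, against 0.00 over all genes), among them Mvd with 0.43 (adjusted p = 0.095), and 16 of the 17 did not pass. Their means were 9.23 to 9.54 log2 in PI mucosa and 9.18 to 9.29 log2 in its controls. The controls of 3 and 60 days had 9.32 to 9.56 and 9.43 to 9.50 log2. With the controls of all ages pooled, the median log2 fold change of the 32 genes was 0.02, against 0.13, and 1 was called (6.18% of all genes). Scd was at 7.37, 7.26, 7.01, 6.89 and 6.70 log2 in PI mucosa, which overlapped the controls at 6.92, 6.64 and 6.56 log2 (log2 fold change 0.34, adjusted p = 0.599). Fibroblast markers averaged 12.44 to 12.68 log2 in PI and 12.18 to 12.25 log2 in control mucosa at 14 days (3 of 7 higher), division markers 8.16 to 8.64 log2 and 7.84 to 8.13 log2 (1 of 8 higher, as was 1 of 8 muscle markers), and endothelial markers 9.18 to 9.48 log2 and 8.90 to 9.02 log2 (1 of 4 higher). Their part in the values was not tested.

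At 60 days 0 of the 32 genes were called higher and 0 lower (limma; 1 at an unadjusted p under 0.05), beside 0.0563% of all genes called, 0.0211% higher and 0.0352% lower. Scd was at 6.74, 6.95, 7.19, 7.93 and 7.42 log2 in PI mucosa and 6.77 and 6.49 log2 in control mucosa, with overlap at the lowest PI array (log2 fold change 0.62, 95% interval 0.12 to 1.12, adjusted p = 0.427). Acss2 was at 10.33, 10.23, 10.18, 10.41 and 10.46 log2 in PI and 10.11 and 10.14 log2 in control mucosa (0.19, adjusted p = 0.642). Fads1 was at 9.83, 10.17, 9.59, 9.99 and 9.91 log2 in PI and 10.05 and 10.28 log2 in control mucosa (-0.27, adjusted p = 0.642). With the controls of all ages pooled 4 genes were called, beside 6.96% of all genes, and 0 without the 3 arrays that deviated together.

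The injury effects were then compared between times. The effect at 3 days differed from that at 14 days for 3 of the 32 genes (limma; 1 higher and 2 lower, beside 8.01% of all genes called, 5.47% higher and 2.54% lower): Scd by 2.43 log2 (adjusted p = 2.36e-05), Hsd17b7 by -0.69 (adjusted p = 0.0283) and Fdft1 by -0.60 (adjusted p = 0.0164). It differed from that at 60 days for 4 genes (1 higher and 3 lower, beside 13.5% of all genes called, 8.7% higher and 4.78% lower), which were Scd (2.15, adjusted p = 0.000112), Hsd17b7 (-0.74, adjusted p = 0.0189), Insig1 (-0.67, adjusted p = 0.0309) and Acss2 (-0.43, adjusted p = 0.0463). Scd was called for both in every alternative, whereas against 14 days Hsd17b7 was called in 19 and Fdft1 in 22 of 25. Against 60 days Hsd17b7 was called in 21, Insig1 in 17 and Acss2 in 13 of 24, and the call of Hsd17b7 was lost with the mean of probe sets (adjusted p = 0.276). Both counts use the same arrays of the 3-day groups.

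Within PI mucosa, from 3 to 14 days, 8 of the 32 genes were higher at 14 days and 3 were lower (limma, beside 34.2% of all genes called, 15.8% higher and 18.4% lower). Scd fell by 2.36 log2 (SE 0.18, adjusted p = 5.96e-09), with the 14-day arrays at 6.70 to 7.37 log2 below the 3-day arrays at 9.07 to 9.74 log2. Fads1 fell by 0.53 log2, with 9.85, 10.11, 10.20, 10.11 and 9.95 log2 at 14 days and 10.41, 10.55, 10.46, 10.51 and 10.91 log2 at 3 days, without overlap. Srebf1 rose by 0.57 log2 (SE 0.11, adjusted p = 0.00035), with 10.01, 10.29, 9.96, 9.91 and 10.02 log2 at 14 days and 9.59, 9.32, 9.19, 9.39 and 9.85 log2 at 3 days, also without overlap. Fdft1 (0.57), Insig1 (0.47), Hsd17b7 (0.43), Me1 (0.42), Srebf2 (0.42), Acss2 (0.35) and Lss (0.30) were higher at 14 days, and Stard4 was lower (-0.41). Scd, Fads1, Srebf1, Fdft1, Insig1 and Acss2 were called in 19 of 19 alternatives, Hsd17b7, Me1, Srebf2 and Stard4 in 18, and Lss in 8. With the mean of probe sets Hsd17b7, Me1, Srebf2 and Lss had 0.12, 0.20, 0.19 and 0.07 (adjusted p = 0.254, 0.229, 0.0584 and 0.623), and with the probe set of highest mean Stard4 had -0.15 (adjusted p = 0.305). Without the 3 arrays that deviated together 15 genes were called, beside 46.8% of all genes.

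Cell type markers moved between these times too. Muscle markers averaged 13.21 to 13.51 log2 at 14 days and 11.77 to 12.56 log2 at 3 days PI (8 of 8 higher at 14 days), and myelin markers 7.34 to 7.66 log2 and 6.23 to 6.68 log2 (3 of 4 higher). Division markers averaged 8.16 to 8.64 log2 at 14 days and 9.78 to 9.99 log2 at 3 days (7 of 8 lower, 1 higher), and neutrophil markers 5.53 to 6.29 log2 and 6.36 to 8.26 log2 (5 of 5 lower). Fibroblast markers averaged 12.44 to 12.68 log2 at 14 days and 13.03 to 13.28 log2 at 3 days (5 of 7 lower), and macrophage markers 9.83 to 10.26 log2 and 10.25 to 10.90 log2 (5 of 8 lower). Epithelial markers averaged 12.20 to 12.63 log2 at 14 days and 11.96 to 12.38 log2 at 3 days (2 of 6 higher, 2 lower), and gland markers 11.43 to 11.86 log2 and 11.03 to 12.13 log2 (1 of 5 higher, 1 lower). Their part in the values of the 32 genes was not tested. Between 60 and 14 days 0 of the 32 were called (limma; 3 at an unadjusted p under 0.05, beside 2.1% of all genes called, 0.26% higher and 1.84% lower). Cyp51 had the smallest p, with 11.06, 11.16, 11.38, 11.47 and 11.07 log2 at 60 days and 10.81, 11.04, 10.99, 10.43 and 11.01 log2 at 14 days (log2 fold change 0.37, 95% interval 0.14 to 0.60, limma adjusted p = 0.0969). These ranges did not overlap, as for 2.9% of all genes. Fibroblast markers averaged 11.67 to 12.02 log2 at 60 days and 12.44 to 12.68 log2 at 14 days PI (4 of 7 lower), and 1 of 4 myelin markers was lower. The part of these markers was not tested.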

How the data were processed

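RNA of 23 mucosa and 13 fibroblast arrays was hybridized to Affymetrix rat genome arrays, and the authors summarized the probes with RMA (affy, per the submitters' processing notes; versions not given in the sources used here). The deposited values are log2 signals of 31099 probe sets. The sorted values of all 36 arrays differed by at most 0.03, so mucosa and cultures had been brought to the same distribution. The RMA steps could not be varied.

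After removal of 57 control probe sets, 20826 of 31042 probe sets carried 1 symbol, 436 several and 9780 none. Symbols were updated by gene number (20758) or accession (2), or kept as given (66). Of the 14217 genes, 4525 had several probe sets, and the one of median mean intensity was used, as in the study's methods. For the genes described, 17 had several probe sets and 15 had 1.

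Groups were taken from the labels and tested by linear models in limma (version 3.58.1, run under R version 4.3.3). The 6 mucosa groups (23 arrays) and the 4 fibroblast groups (13 arrays) each had their own model, and fibroblasts against mucosa used a model of all 36 arrays. P-values were two-sided and adjusted by Benjamini-Hochberg over 14217 genes. The study's EBarrays model was not run here. The script was tested on simulated data. Values in every array are given for up to 6 called genes with the largest difference per comparison, or for the 3 of smallest p. Srebf2, Insig1 and Scd were also given beyond that. Neighbouring genes are named only where called, up to 4 per list. The listed genes, lists and markers were chosen with earlier results of these data known. Alternatives were other probe set choices, array weights, centring, repeated quantile normalization, limma-trend, fits of the compared arrays alone, a filter of the 30% of genes of lowest mean, pooled controls, a replicate block and each replicate left out.

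Replicate numbers were checked for pairing by the correlation of deviations from group means. For gp46 and scramble siRNA cultures Pearson's r was 0.43, 0.18 and 0.47, while the labels do not link these cultures. The main fit did not pair them, and a fit with the number as a block is given beside it. Other groups were not paired in the main fits either. Separate rats stand behind the arrays, while for the siRNA cultures the labels do not say whether they share rats with others. Promoter windows came from RefSeq (GRCr8), matched by symbol. For 7 genes there was none, and Srebf1 had 2. Python 3.11.15 and matplotlib 3.10.9 served for the figures.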

Additional observations from a re-analysis of the deposited data

Results flagged for a closer look

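A lone array stood apart from the other arrays of its group in 11 of 128 sets of values examined (32 genes in the 3 PI groups and the scar group). About 1 in 20 sets would be picked by chance, and the sets share arrays. Of the 11, 7 came from PI replicate 5 at 3 days and 3 from PI replicate 4 at 60 days, both of which are among the 3 arrays that deviated together. In PI replicate 5 at 3 days, Sqle was 11.05 log2 (other PI arrays 10.35 to 10.54), Insig2 9.87 (9.36 to 9.43), Acly 11.72 (11.21 to 11.31) and Fads1 10.91 (10.41 to 10.55). In the same array Pmvk was 8.08 log2 (others 8.87 to 8.98), Ebp 8.59 (9.20 to 9.41) and Stard4 6.79 (7.30 to 7.38). In PI replicate 4 at 60 days, Mvd was 7.81 log2 (others 8.38 to 8.57), Pmvk 8.28 (9.09 to 9.26) and Fasn 11.29 (10.84 to 10.95). In PI replicate 3 at 3 days, Acat2 was 9.06 log2 (others 9.22 to 9.28).

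The injury effect differed between times for a few genes (limma). The effect at 3 days minus that at 14 days was 2.43 log2 for Scd, -0.69 for Hsd17b7 and -0.60 for Fdft1. The effect at 3 days minus that at 60 days was 2.15 log2 for Scd, -0.74 for Hsd17b7, -0.67 for Insig1 and -0.43 for Acss2.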

How the results depend on the processing

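Counts of called genes among the 32 changed with some choices. At 3 days PI (5 called) the count was 22 with array weights (58.6% of all genes called), 8 with the arrays compared fitted alone (26.3%) and 12 with the controls of all ages pooled (39%). It was 14 without the 3 arrays that deviated together (38.5%), 11 with a replicate block (29.7%), and 5 to 10 with each array left out (19% to 27%). At 14 days (1) it was 10 with array weights (14.7% of all genes called), 2 with the arrays alone (6.44%), 2 without the 3 arrays (3.5%) and 2 with the block (3.13%). With each array left out it was 0 to 1 (1.18% to 2.93%). At 60 days (0) the count was 4 with pooled controls (6.96% of all genes called) and 0 with each array left out (0% to 0.19%). For 14 against 3 days PI (11) it was 19 with array weights (52.2% of all genes called) and 10 to 15 with an array left out (28.6% to 35.1%). For 60 against 14 days PI (0) it was 2 with array weights (5.85%) and 1 without the 3 arrays (3.68%). For the injury effect at 3 against 14 days (3) it was 15 with array weights (35.6% of all genes called) and 8 without the 3 arrays (16.5%). With an array left out it was 1 to 6 (1 without control replicate 1 of 14 days, with 5.8%, and 6 without PI replicate 5 of 3 days, with 9.26%). For 3 against 60 days (4) it was 16 with array weights (33.7% of all genes called), 1 with the arrays alone (8.9%) and 10 without the 3 arrays (24.9%). With an array left out it was 1 to 8 (1 without control replicate 1 of 60 days, with 7.67%, and 8 without PI replicate 5 of 3 days, with 16.4%).

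For scar against naive fibroblasts (22) the count was 13 with the arrays alone (0.921% of all genes called). It was 14 to 26 with a culture left out (14 without naive replicate 1, with 1.94%, and 26 without scar replicate 4, with 9.17%). Alternatives chosen after seeing the data gave 13 without the cultures of highest muscle markers (2.26%) and 8 without the 2 scar cultures of highest division markers (0.992%). With a replicate block it was 0, where 0% of all 14217 genes were called and the median log2 fold change of the 32 was -0.61. Scar and naive cultures come from different rats, and same-numbered cultures had Pearson's r of 0.096, 0.119 and 0.139 between their deviations, so the number was not taken as a pairing. In the mucosa these correlations were -0.13 to 0.31. For scramble siRNA against scar (25) the count was 20 to 27 (11% and 29.5% of all genes called in these 2 fits). For naive fibroblasts against mucosa (29) it was 28 to 31 (53.6% and 66.6%), and for gp46 against scramble siRNA 0 throughout, the block included. The share of all genes called moved as well: with array weights it was 58.6%, 14.7% and 0.464% at 3, 14 and 60 days PI (26.6%, 3.03% and 0.0563% without), 52.2% for 14 against 3 days (34.2% without), 35.6% and 33.7% for the injury effect at 3 against 14 and 60 days (8.01% and 13.5% without). Without the 3 arrays it was 38.5%, 3.5% and 0.155% at 3, 14 and 60 days. No log2 fold change of the 32 genes that was called turned its sign in these alternatives. The cause of these shifts was not tested. Array number limits the precision, with 2 controls at 60 days.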
